A study of Homo sapiens with 18 samples.

Results

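The line-by-doxycycline interaction at day 6 asks, gene by gene, whether SARS2-deleted and parental HAP1 cells changed differently between doxycycline and no doxycycline. It is the log2 change of the deleted line from doxycycline to day 6 minus the log2 change of the parental line from doxycycline to no doxycycline. A positive value means that the deleted line moved higher, or less far down, than the parental line. Its libraries were taken by their labels, 12 of the 18 libraries of the series, 3 in each of 4 groups, and 21615 of the 59251 annotated genes passed the filter on low counts and were tested. Of these, 1186 had a higher and 1543 a lower interaction at an adjusted p under 0.05, together 12.6% of the genes tested (5.49% higher and 7.14% lower). At least 2-fold differences made up 220 of the higher ones (1.02%) and 289 of the lower ones (1.34%).

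HAP1 is a near-haploid human cell line that grows attached to plastic and comes from a leukaemia line. The deleted line lacks endogenous SARS2 per its label and carries a SARS2 transgene with a FLAG tag. One of its groups was labelled as 6 days without doxycycline, and its control was kept in 15 ng/mL doxycycline. The parental line, whose label names no change in SARS2, was likewise measured without and with 15 ng/mL doxycycline. The labels do not say whether the parental cells without the drug had received it before, nor for how long they were without it. They also do not say of how many clones the deleted line consists. The number of cells behind a library was not given, so fewer cells of a state and less RNA per cell cannot be told apart in these bulk values.

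SARS2 is the synthetase that charges the serine transfer RNAs of mitochondria, and cells without it are known to lose protein synthesis inside the organelle. Loss of mitochondrial translation typically activates the integrated stress response, in which phosphorylated eIF2alpha favours translation of the transcription factor ATF4, and ATF4 induces genes of amino acid synthesis, amino acid import and secreted stress factors. Doxycycline is itself an inhibitor of bacterial-type ribosomes, those of mitochondria included, and many of its effects on human cells arise there. The parental line therefore serves in this design to carry whatever the presence or absence of the drug does without a SARS2 transgene.

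The labels were checked first on SARS2 (chromosome 19, 38915266 to 38930763, minus strand, GRCh38). SARS2 was at 23.2, 25.8 and 25.0 CPM (counts scaled to the library total, the unit of every level given here) in the 3 deleted-line libraries of day 6, against 23.5, 25.2 and 23.9 CPM in those with doxycycline. In the parental line it was at 36.6, 40.4 and 42.6 CPM without doxycycline, against 43.5, 46.2 and 43.2 CPM with it. The day 6 and doxycycline ranges of the deleted line overlapped, and all 6 of its libraries lay below the 6 parental ones. The SARS2 interaction was 0.18 ± 0.14 (log2, SE; adjusted p = 0.41), and it did not pass in any alternative fit. A fall of SARS2 RNA after withdrawal was thus not seen, transgene and endogenous reads carry the same gene name in these counts, and the groups below are the libraries labelled with each condition.

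The 12 libraries held 66850705 to 103588649 counts and 25062 to 27382 genes with at least 1 count. On the first principal component of all 18 libraries, deleted-line doxycycline replicate 3, the library with the fewest counts, lay at 12.19. The other 2 of its group lay at −8.23 and −5.82. The day 6 libraries lay at −29.68, −50.71 and −39.29, toward the parental ones without doxycycline (−77.91 to −65.1). Those of day 3 lay at 32.98 to 40.94 and those of day 9 at 72.27 to 83.46. The day 6 libraries thus did not lie between those of days 3 and 9, and the reason was not tested. By the chi-square per gene between replicates, parental no-doxycycline replicate 3 stood furthest from its group, at 69.5 and 86.6 against 21.1 for the other pair; without it the interactions numbered 1250 higher and 1408 lower. For sterol genes day 6 replicate 2 also stood off from its group, as given below. The haematopoietic markers PTPRC, SPI1, GATA1, MPO and HBG1 averaged at most 0.0224 CPM in any of the 4 groups, although the line descends from a leukaemia, while CD68 averaged 0.743 to 1.23 and LCP1 0.31 to 0.869 CPM. Of the mesenchymal markers VIM averaged 423 to 642 CPM, and COL1A2, COL3A1, LUM and DCN at most 0.0253 CPM. Of other cell type markers, 1 of 4 tested haematopoietic (CD33) and 2 of 7 epithelial ones (EPCAM, KRT18) had a higher interaction. Of 12 mesenchymal ones 2 were higher (THY1, ACTA2) and 1 lower (SPARC). Over all genes tested 5.49% were higher and 7.14% lower. CD33 averaged 0.0181 to 0.285, THY1 0.228 to 1.09 and EPCAM 0.617 to 1.7 CPM per group, so their calls rest on low counts. Each of these 6 calls was lost without parental doxycycline replicate 2 or without day 6 replicate 3. Their part in the results was not tested.

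Most genes with an interaction had moved in one line without passing in the other, and more often in the parental line. Of the 1543 genes with a lower interaction, 785 (50.9%) rose in the parental line and did not pass in the deleted line, and 456 (29.6%) fell in the deleted line and did not pass in the parental line. Another 128 fell in the deleted line and rose in the parental line. Of the 1186 genes with a higher interaction, 587 (49.5%) fell in the parental line alone, 350 (29.5%) rose in the deleted line alone, and 88 rose in the deleted line while they fell in the parental line. These shares are set by the responses of the separate lines: 6070 genes passed in the deleted line (3034 higher, 14.0%, and 3036 lower, 14.0%, together 28.1% of those tested; 3834 without deleted-line doxycycline replicate 3) and 8519 in the parental line (4540 higher, 21.0%, and 3979 lower, 18.4%, together 39.4%).

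**Figure D1:**
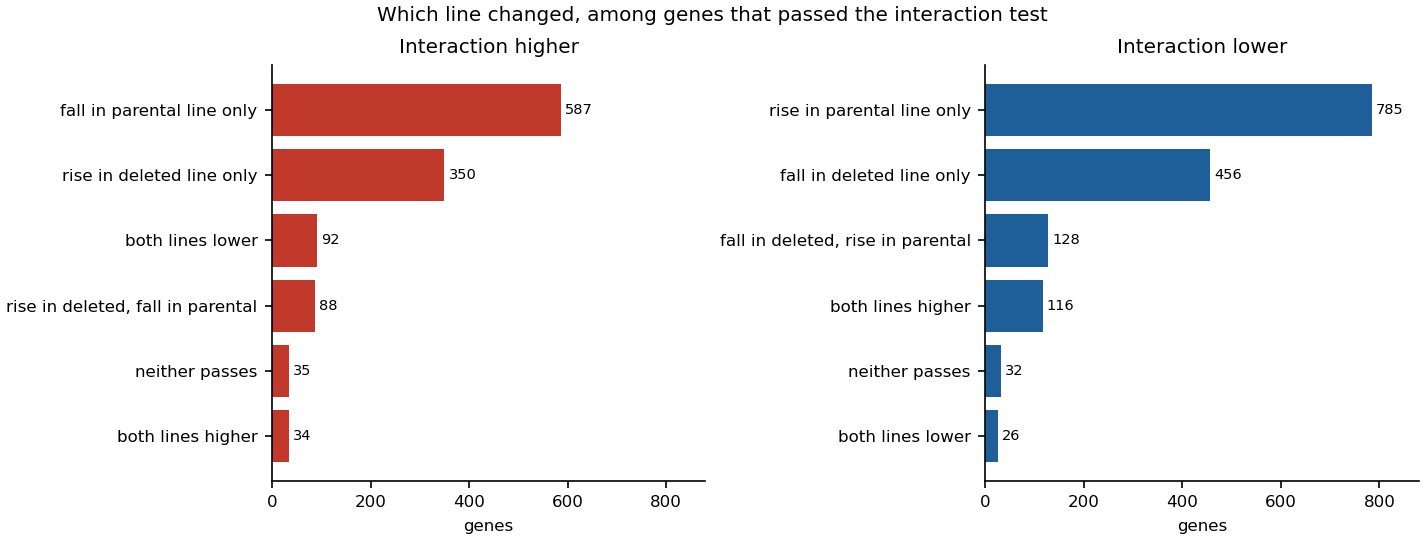
Genes that passed the interaction test, split by whether the change passed in the deleted line (day 6 against doxycycline), in the parental line (no doxycycline against doxycycline) or in both; bars give numbers of genes. Among lower interactions the longest bar is the parental rise (785 genes), and among higher ones the parental fall (587 genes).

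The counts of interactions rested on single libraries to some extent. The 1186 higher ones were 736 without parental doxycycline replicate 2, 713 without replicate 3 of that group, 742 when deleted-line doxycycline replicate 2 was left out and 736 when day 6 replicate 3 was. The 1543 lower ones were 993, 932, 983 and 889 without the same libraries, and 979 without day 6 replicate 1. A total of 575 higher and 735 lower calls stood in each of the 12 fits that left 1 library out.

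A large part of the response was shared. A total of 3519 genes passed in both lines, and 3303 of them moved in the same direction, 1701 higher and 1602 lower. For 3035 of these 3303 the interaction did not pass. The other 216 moved in opposite directions. All 216 passed the interaction, which is nearly given, since opposite changes add up in it. Across the tested genes, which are not independent replicates, the changes of the 2 lines had a Pearson correlation of 0.41 and a Spearman correlation of 0.46; the lines share no library in this comparison.

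**Figure D2:**
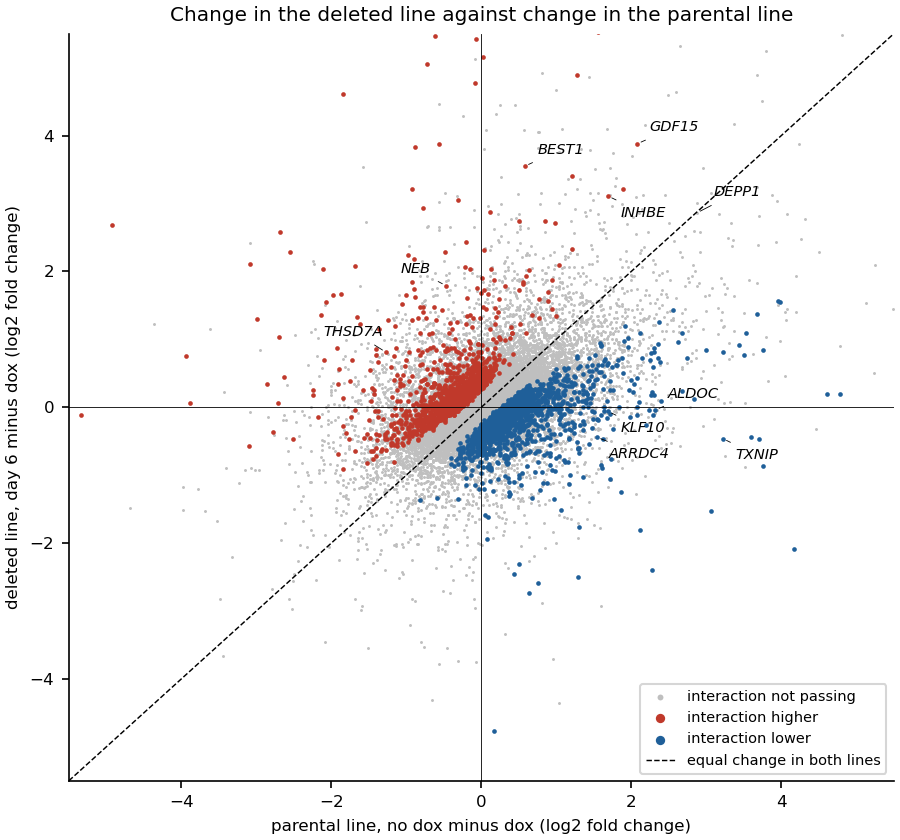
Each point is a tested gene, with the log2 fold change of the parental line on the horizontal axis and that of the deleted line at day 6 on the vertical axis; 39 genes lie outside the axes. Red points (1186) passed with a higher interaction and blue points (1543) with a lower one, on either side of the dashed line of equal change.

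Of the named genes with at least 2 CPM on average whose call held without any 1 library, TXNIP had the lowest interaction (chromosome 1, 145992435 to 145996579, minus strand). It encodes an arrestin-like protein that restrains glucose uptake and is a target of MondoA, which binds paired E-box-like motifs when glucose 6-phosphate accumulates. TXNIP was at 18.3, 19.2 and 17.6 CPM in the deleted line at day 6, against 28.1, 29.6 and 17.9 CPM with doxycycline. In the parental line it stood at 180, 148 and 186 CPM without doxycycline, against 19.8, 17.9 and 17.5 CPM with it. The 3 parental libraries without the drug were far above the other 9; the deleted-line groups overlapped, since doxycycline replicate 3 lay at the day 6 level. The interaction was −3.68 ± 0.23 (adjusted p = 3.1e-08), made of −0.46 ± 0.16 in the deleted line (adjusted p = 0.036) and 3.22 ± 0.17 in the parental line (adjusted p = 7.6e-10).

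ARRDC4 (chromosome 15, 97960703 to 97973833, plus strand), a paralogue of TXNIP and a MondoA target as well, was also lower in the interaction. It was at 8.73, 7.11 and 7.56 CPM at day 6, against 11.1, 11.2 and 9.38 CPM with doxycycline in the deleted line. In parental cells it was at 34.5, 31.0 and 31.0 CPM without doxycycline, against 10.8, 11.9 and 10.6 CPM with it. The day 6 libraries were the lowest and the parental ones without the drug the highest, with no overlap between either pair of groups. Its interaction was −1.97 ± 0.15 (adjusted p = 3.8e-07). The list of this pathway had 4 tested members: TXNIP and ARRDC4 were lower, and MLXIP, which encodes MondoA, and its partner MLX had values of the other sign, 0.23 and 0.27, that did not pass (adjusted p = 0.13 and 0.078; both under 0.05 unadjusted). By DESeq2 1 member was called higher, as it was without parental no-doxycycline replicate 3.

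The promoters of TXNIP and ARRDC4 are shown with E-box motifs in capitals. For TXNIP these are 2 copies of CACGNG with 5 bases between them, the paired form that the MondoA family is known to bind. The ARRDC4 window held 0 copies of this paired form, and its single CACGTG is marked. Sequences are from RefSeq (GRCh38.p14), run 5′ to 3′ on the gene's strand, and cover 250 bases before to 50 after the start; of the windows that RefSeq lists for TXNIP, the one with the match is given.
TXNIP promoter, chr1:145996530-145996829, minus strand: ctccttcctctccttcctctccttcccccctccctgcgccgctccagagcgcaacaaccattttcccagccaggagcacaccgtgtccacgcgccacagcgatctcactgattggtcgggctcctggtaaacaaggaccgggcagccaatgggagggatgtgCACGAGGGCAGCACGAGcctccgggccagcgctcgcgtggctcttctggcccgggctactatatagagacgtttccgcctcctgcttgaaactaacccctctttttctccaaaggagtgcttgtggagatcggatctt
ARRDC4 promoter, chr15:97960453-97960752, plus strand: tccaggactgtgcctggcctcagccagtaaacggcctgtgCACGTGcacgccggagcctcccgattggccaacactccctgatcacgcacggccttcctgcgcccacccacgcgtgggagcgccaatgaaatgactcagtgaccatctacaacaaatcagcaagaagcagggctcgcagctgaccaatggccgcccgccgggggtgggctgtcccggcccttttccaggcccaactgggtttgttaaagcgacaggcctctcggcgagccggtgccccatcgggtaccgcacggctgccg
Searched on both strands, the paired motif was in 17 of 14347 tested genes with a promoter sequence (0.118%), in 5 of 1164 with a lower interaction (0.43%) and in 0 of 897 with a higher one. CACGTG, which the paired motif may contain, was in 11.6% of tested genes, 9.28% of those with a lower and 15.9% of those with a higher interaction. A match describes the letters and is not evidence of binding.

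Genes of glycolysis and of the response to low oxygen were mixed, with 8 of 29 tested members lower in the interaction and 1 higher. The 1 became 2 without parental no-doxycycline replicate 3 or day 6 replicate 2, and 3 by DESeq2. The other 20 did not pass, and the list median was −0.16. In the deleted line 1 rose and 10 fell, against 12 that rose and 10 that fell in the parental line. ALDOC, an aldolase isoform of the glycolytic pathway, was at 14.3, 18.9 and 14.5 CPM at day 6, against 18.1, 16.9 and 13.9 CPM with doxycycline. Parental cells had 68.3, 70.0 and 82.4 CPM of ALDOC without doxycycline, against 16.6, 14.6 and 12.9 CPM with it. The deleted-line groups overlapped while the parental ones lay far apart, and the interaction was −2.36 ± 0.32 (adjusted p = 0.00027).

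PFKFB4, which makes the activator of phosphofructokinase, was at 11.0, 10.5 and 10.9 CPM at day 6, against 14.4, 14.5 and 13.4 CPM with doxycycline. Parental cells held 24.7, 28 and 29.9 CPM without doxycycline, against 13, 11.8 and 10.1 CPM with it. It thus fell in the deleted line (−0.38 ± 0.12, adjusted p = 0.028) and rose in the parental line (1.24 ± 0.12, adjusted p = 7.6e-07). The same held for BNIP3, a mitophagy receptor, with an interaction of −0.73 ± 0.09 (adjusted p = 6.8e-05), and for MIR210HG, the host transcript of an oxygen-responsive microRNA, with −2.18 ± 0.24 (adjusted p = 4.8e-05). NDRG1, a stress gene induced by low oxygen, rose in the parental line by 2.04 ± 0.23 and gave 0.35 ± 0.22 in the deleted line (interaction −1.69 ± 0.32, adjusted p = 0.0025). The 1 member with a higher interaction was SLC2A1, the basal glucose transporter GLUT1 (0.85 ± 0.16, adjusted p = 0.003). It fell in the parental line (−0.89 ± 0.12, adjusted p = 1.2e-05) and gave −0.04 ± 0.12 in the deleted line.

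Several other genes had a lower interaction with a rise in the parental line alone, or with a larger rise there than in the deleted line. KLF10, a zinc finger repressor induced by TGF-beta, averaged 12.2 ± 0.557 CPM at day 6 and 12.8 ± 0.793 CPM with doxycycline in the deleted line (SD, n = 3 each). In the parental line KLF10 averaged 28.4 ± 2.63 CPM without and 8.82 ± 0.42 CPM with doxycycline, and its interaction was −1.75 ± 0.12 (adjusted p = 1.5e-07). Of 13 tested genes linked to quiescence 3 had a lower interaction (5 without day 6 replicate 2 or without the low-count filter) and 0 a higher; 7 rose at day 6 and 9 without doxycycline in the parental line. Among the 3 were YPEL1, of a family of zinc-binding proteins, at −1.28 ± 0.14 (adjusted p = 3.3e-05), and PIK3IP1, an inhibitor of PI3 kinase, at −1.63 ± 0.34 (adjusted p = 0.0049). SESN3, a sestrin that restrains mTORC1, rose in both lines, by 0.37 ± 0.12 in the deleted and 1.20 ± 0.12 in the parental line (interaction −0.83 ± 0.17, adjusted p = 0.0039).

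**Figure D3:**
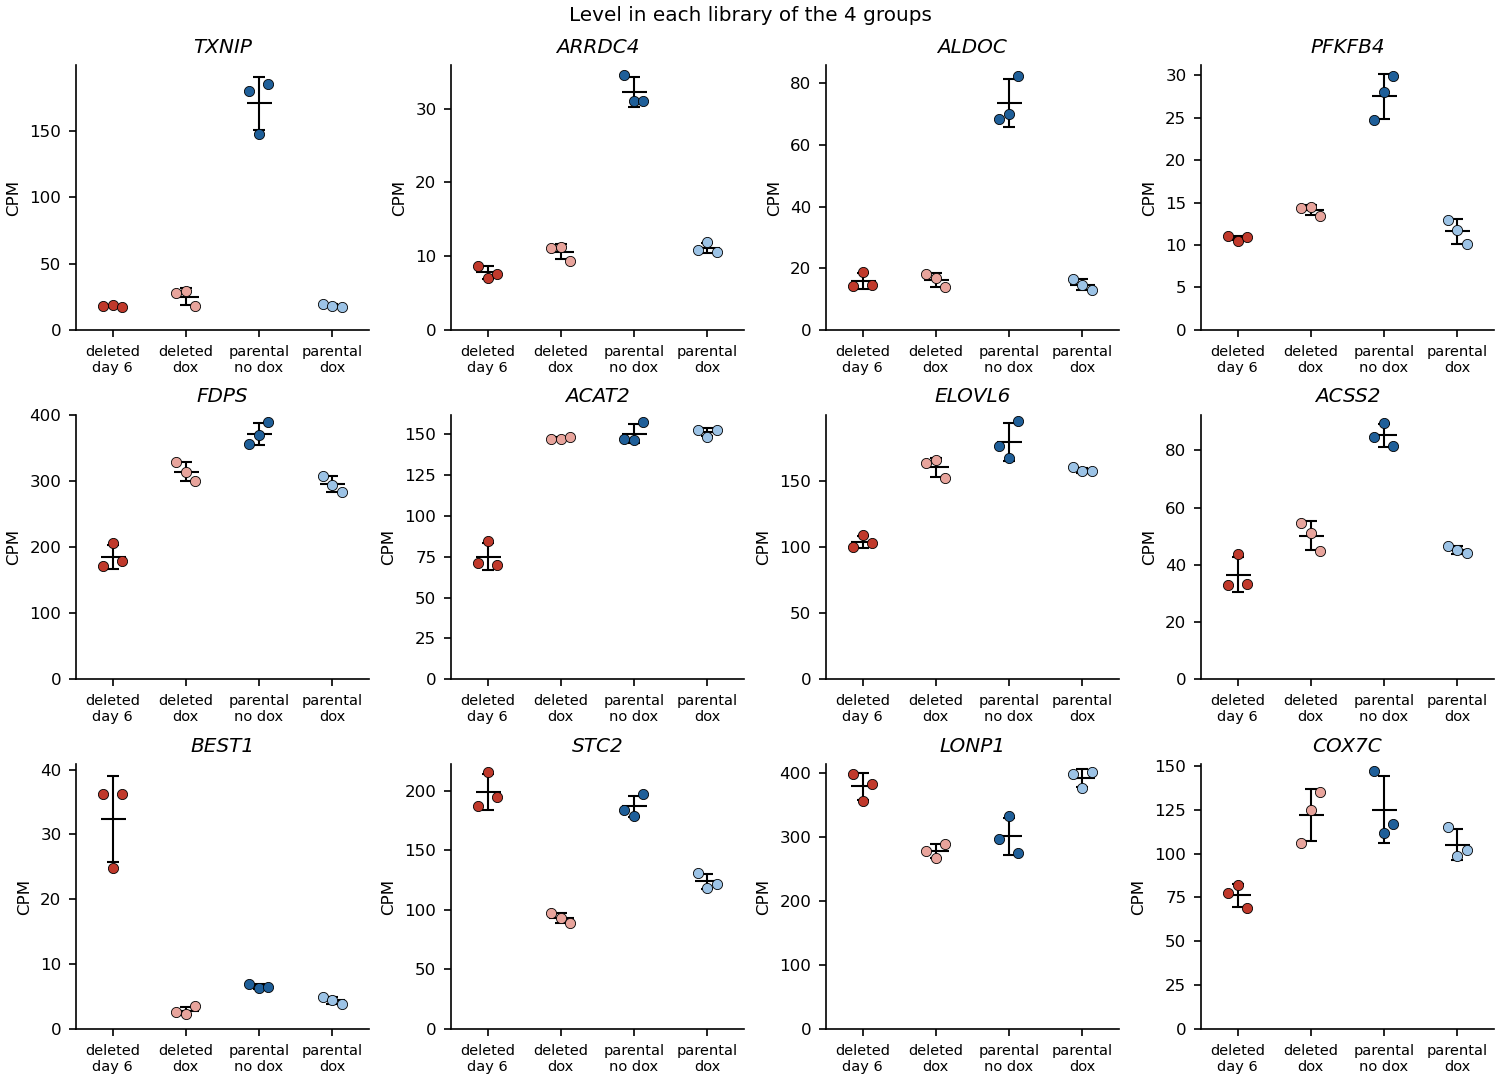
CPM of 12 genes in each of the 12 libraries (points), with the mean and SD of the 3 libraries of a group; every vertical axis starts at 0. TXNIP, ARRDC4, ALDOC and PFKFB4 are high only in the 3 parental libraries without doxycycline, FDPS, ACAT2 and ELOVL6 are lowest in the 3 of day 6, and BEST1 is high at day 6 alone.

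Sterol synthesis carried the lowest median of the lists with at least 10 members. The mevalonate pathway builds cholesterol from acetyl-CoA, and its genes are induced together by SREBP2 when sterols or their transport run low. Of 23 tested members of the cholesterol list 17 had a lower interaction and 0 a higher, with a list median of −0.76 beside −0.02 over all genes tested. In the deleted line 18 fell (median −0.60), whereas in the parental line 6 rose and 4 fell (median 0.24). Interactions of the members ran from −1.67 to 0.17. The count of lower interactions was 14 to 21 when any 1 of the 12 libraries was left out.

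FDPS (chromosome 1, 155308866 to 155320665, plus strand), which makes farnesyl pyrophosphate, was at 172, 207 and 179 CPM at day 6, against 329, 315 and 300 CPM with doxycycline. In parental cells it was at 357, 370 and 390 CPM without, against 308, 295 and 284 CPM with doxycycline. The groups did not overlap in either line, and they moved in opposite directions (interaction −1.09 ± 0.09, adjusted p = 2.2e-06). ACAT2, the cytosolic thiolase at the entry of the pathway, was at 71.0, 84.4 and 69.7 CPM at day 6, against 147, 147 and 148 CPM with doxycycline. Parental cells held 147, 146 and 157 CPM of ACAT2 without, against 152, 148 and 152 CPM with the drug. The day 6 libraries of ACAT2 were far below the other 9. ACAT2 fell in the deleted line by 0.97 on the log2 scale (SE 0.07), its interaction was −0.96 ± 0.10 (adjusted p = 1.7e-05), and the parental change of −0.01 ± 0.07 did not pass (adjusted p = 0.93). LSS, which closes the sterol ring, had an interaction of −0.64 ± 0.10 (adjusted p = 0.00065), and DHCR7, which takes the last step to cholesterol, −0.80 ± 0.13 (adjusted p = 0.00088).

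Lipid genes of the related SREBP1 programme followed. In the fatty acid list 8 of 13 tested members had a lower interaction and 0 a higher (median −0.49); 10 fell in the deleted line, against 3 that rose and 3 that fell in the parental line. ELOVL6, which elongates palmitate, was at 100, 109 and 103 CPM at day 6, against 163, 166 and 152 CPM with doxycycline. In parental cells it was at 176, 167 and 195 CPM without, against 160, 157 and 157 CPM with the drug. All day 6 libraries lay below the other 9, and the interaction was −0.80 ± 0.08 (adjusted p = 2.7e-05). ACSS2, which activates acetate to acetyl-CoA, fell in the deleted line and rose in the parental line (interaction −1.37 ± 0.15, adjusted p = 4.8e-05). The desaturases SCD (−0.94 ± 0.16, adjusted p = 0.0016) and FADS2 (−0.50 ± 0.09, adjusted p = 0.0015) were lower too. FADS2 fell in both lines, further at day 6 (−0.87 ± 0.06) than in the parental line (−0.37 ± 0.06). OLMALINC, a long RNA transcribed next to SCD on chromosome 10 (100373576 to 100388354, plus strand), was at 26.1, 48.6 and 30.8 CPM at day 6, against 71.6, 68.9 and 50.1 CPM with doxycycline, and at 123, 128 and 138 CPM in parental cells without, against 72.4, 70.0 and 62.3 CPM with it. Its interaction was −1.78 ± 0.23 (adjusted p = 0.00018). For SCD, OLMALINC and the summed cholesterol list, day 6 replicate 2 was the highest library of its group: SCD was at 664 CPM there and at 423 and 459 CPM in the other 2, and the list sums ran from 2050 to 3155 CPM at day 6, from 3458 to 4099 with doxycycline, from 4021 to 4224 in the parental line without and from 3444 to 3604 CPM with it.

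**Figure D4:**
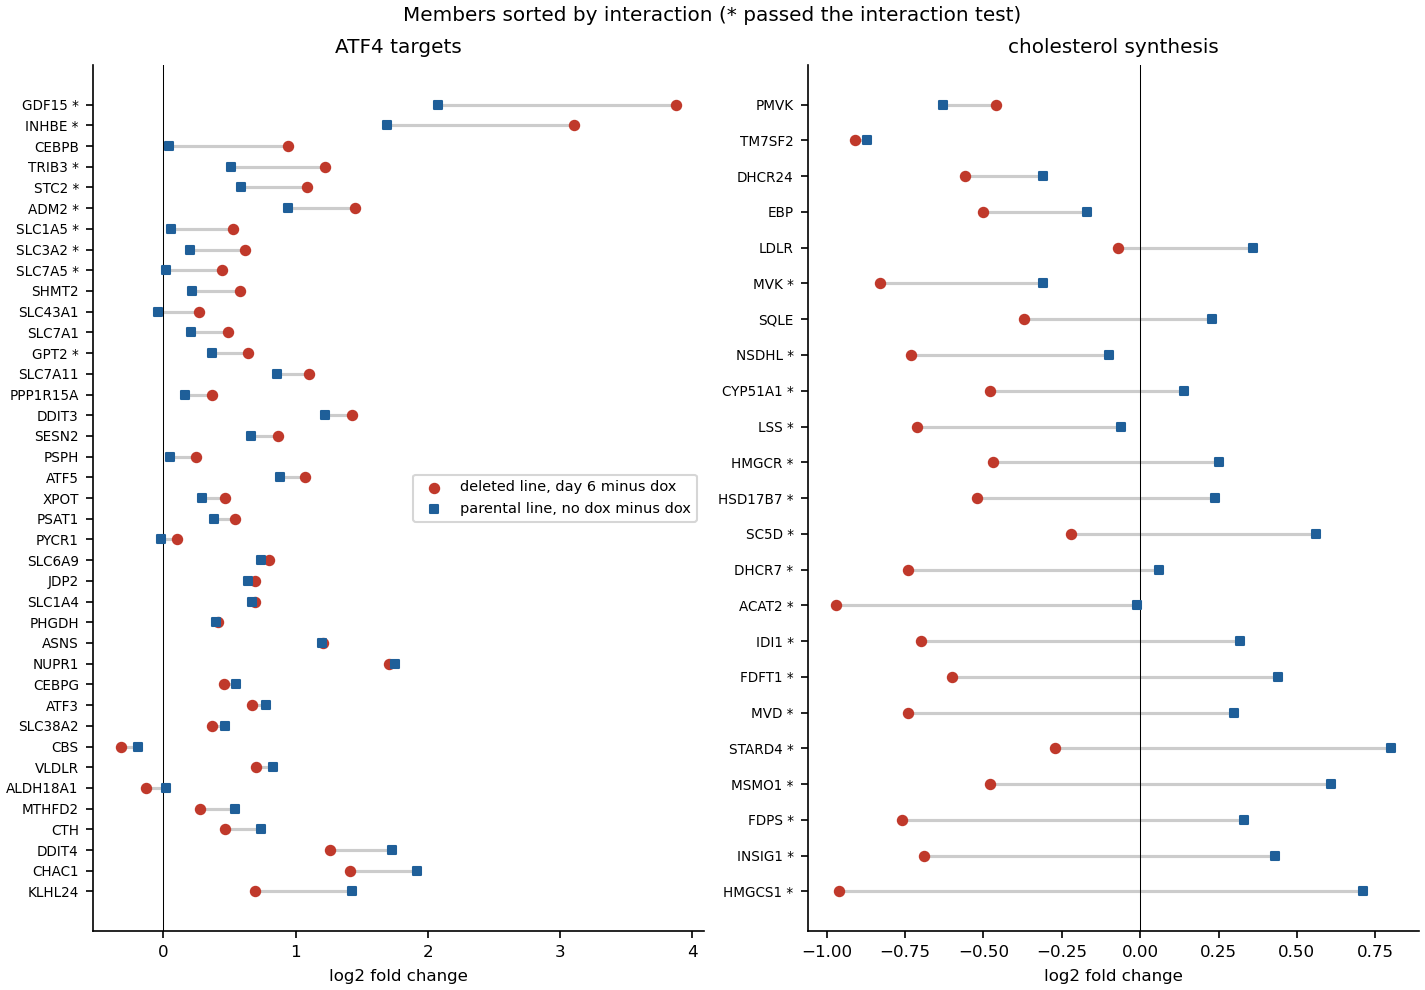
Log2 fold change of each tested member in the deleted line (red circles) and the parental line (blue squares), for targets of ATF4 (left, without FGF21, which was at or near 0 counts) and cholesterol synthesis (right); stars mark the 9 and 17 members that passed the interaction test. Most ATF4 targets rose by similar amounts in both lines, whereas the circles of the cholesterol genes lie left of the squares for all but 1.

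Genes of the cytosolic ribosome fell at day 6 and mostly did not pass in the parental line. Ribosomal proteins are made in equal numbers for both subunits and are controlled together by growth signals. Of 78 tested members 47 had a lower interaction and 1 a higher (median −0.35); 72 fell in the deleted line, against 4 that rose and 11 that fell in the parental line. RPL31, a protein of the large subunit, was at 298, 310 and 279 CPM at day 6, against 360, 402 and 452 CPM with doxycycline, and at 451, 371 and 374 CPM in parental cells without, against 361, 322 and 337 CPM with the drug. The day 6 libraries lay below all others, and the interaction was −0.68 ± 0.13 (adjusted p = 0.0024). RPS27A, a small-subunit protein made as a fusion with ubiquitin, had −0.62 ± 0.12 (adjusted p = 0.0025), RPS3A −0.53 ± 0.10 (adjusted p = 0.003) and RPL13A −0.46 ± 0.09 (adjusted p = 0.0033). The 1 higher member was RPS10 (0.95 ± 0.20, adjusted p = 0.0047) at 3.09 to 11.2 CPM on average per group, whose locus also holds a readthrough transcript, so its counts are uncertain. The count of 47 was 25 without day 6 replicate 3, 27 without parental doxycycline replicate 2, 29 without parental doxycycline replicate 3 or parental no-doxycycline replicate 1, and 31 without day 6 replicate 1; with the trend over gene length and span removed it was 32.

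Nuclear genes of the respiratory chain did likewise. The respiratory chain mixes subunits from mitochondrial DNA with imported ones, and these data cover the imported subunits alone, since all 37 genes of the mitochondrial chromosome held 0 counts. Of 41 subunits of complexes II to V, 24 had a lower interaction and 0 a higher (median −0.33), and of 37 of complex I, 13 were lower and 0 higher (median −0.26). In the deleted line 33 and 25 of them fell; in the parental line 10 and 10 fell and 4 and 4 rose. COX7C, a small subunit of cytochrome c oxidase, was at 77.3, 82.1 and 68.8 CPM at day 6, against 106, 125 and 135 CPM with doxycycline. It was at 147, 112 and 117 CPM in the parental line without, against 115, 98.6 and 102 CPM with the drug. The day 6 libraries were below all 9 others (interaction −0.94 ± 0.15, adjusted p = 0.0008). COX6C, of the same enzyme, had −0.82 ± 0.13 (adjusted p = 0.00073). Subunits of ATP synthase (ATP5MJ, −0.76 ± 0.13; ATP5MG, −0.67 ± 0.12) and of complex I (NDUFB6, −0.74 ± 0.13; NDUFB4, −0.65 ± 0.11; NDUFS5, −0.55 ± 0.10) passed as well, with adjusted p of 0.0015 to 0.0026. The count of 24 was 13 without parental no-doxycycline replicate 1 or day 6 replicate 3, 14 without parental doxycycline replicate 2 and 15 without deleted-line doxycycline replicate 3, and the count of 13 was 8 without either of the first 2. PDHB, a subunit of pyruvate dehydrogenase, which feeds the chain, fell at day 6 and rose in the parental line (interaction −0.58 ± 0.08, adjusted p = 0.00029), 1 of 6 lower interactions among 21 genes of the tricarboxylic acid cycle and pyruvate, with 0 higher. That count of 6 was 3 without parental doxycycline replicate 2 or 3 or without day 6 replicate 1 or 3.

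The mitochondrial ribosome, by contrast, fell in both lines. Of 81 tested genes 62 fell at day 6 and 51 in the parental line, 42 of them in both. The interaction was lower for 9, higher for 3 and had a median of −0.01. Over all genes tested 7.14% were lower and 5.49% higher, so the 3 higher ones lie under that share. MRPL48 (−0.55 ± 0.10, adjusted p = 0.0027) and MRPS14 (−0.45 ± 0.09, adjusted p = 0.0035) fell in the deleted line and rose in the parental line. MRPS2 fell in the parental line (−0.63 ± 0.09) and gave −0.03 ± 0.09 at day 6 (interaction 0.59 ± 0.12, adjusted p = 0.0042). The 9 lower calls became 5 when replicate 2 or 3 of the parental doxycycline group was left out, or replicate 3 of either deleted-line group. The 3 higher calls became 1 on leaving out any parental doxycycline library, deleted-line doxycycline replicate 1 or 2, or replicate 1 or 3 of day 6, and 6 on leaving out parental no-doxycycline replicate 2; with no low-count filter they were 11. Import machinery fell in both lines for 12 of 23 tested members, and cytosolic heat shock chaperones for 10 of 15; their interaction medians were 0.03 and 0.08. Of 17 mitochondrial transfer RNA synthetases, SARS2 among them, 7 fell in both lines.

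**Figure D5:**
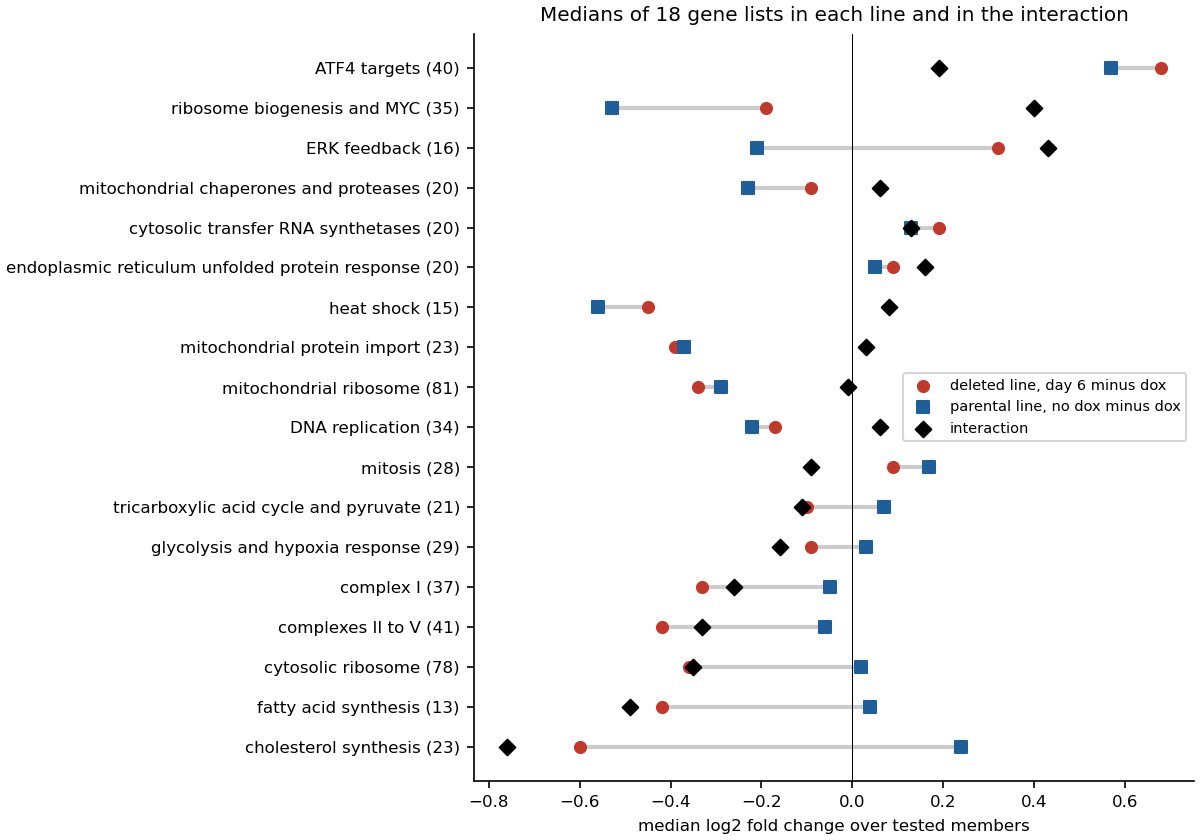
Median log2 fold change over the tested members of 18 gene lists (number of members in brackets) in the deleted line, in the parental line and in the interaction. Lists of the cytosolic ribosome, respiratory complexes and lipid synthesis lie below 0 for the deleted line and near or above 0 for the parental line, while ATF4 targets, heat shock, import and the mitochondrial ribosome lie on the same side of 0 in both.

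Targets of ATF4 rose in both lines, and somewhat further in the deleted line. Of 40 tested members 36 rose at day 6 (median 0.68) and 30 in the parental line without the drug (median 0.57), 29 of them in both. The interaction was higher for 9, lower for 0 and had a median of 0.19. The deleted line started lower: with doxycycline in both lines, 25 members were lower and 2 higher in it than in the parental line (median −0.40; of all genes tested 2156, or 9.97%, were lower and 2015, or 9.32%, higher, together 19.3%). Without the drug 21 members were still lower and 3 higher at day 6 than in parental cells (median −0.18; of all genes 3925, or 18.2%, were lower and 3381, or 15.6%, higher, together 33.8%).

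ATF4 itself gave 0.03 ± 0.08 (adjusted p = 0.86), the mitochondrial stress factor ATF5 0.20 ± 0.17 (adjusted p = 0.49) and the pro-apoptotic factor DDIT3 0.21 ± 0.17 (adjusted p = 0.47), so that none of the 3 passed. DDIT3 was at 45.0, 58.1 and 48.5 CPM at day 6, against 19.5, 18.1 and 18.8 CPM with doxycycline, and at 55.6, 44.1 and 60.7 CPM in parental cells without, against 24.1, 21.6 and 23.1 CPM with it. The groups without the drug overlapped between the lines, and the 95% interval of the interaction ran from −0.15 to 0.57. CHAC1, which degrades glutathione, is shown as a target that rose in both lines, by 1.41 at day 6 and 1.92 in parental cells, with an interaction of −0.51 that did not pass (adjusted p = 0.07). In its promoter from RefSeq (GRCh38.p14) the amino acid response element TGATGNAA, here read on the other strand, is in capitals.
CHAC1 promoter, chr15:40953221-40953520, plus strand: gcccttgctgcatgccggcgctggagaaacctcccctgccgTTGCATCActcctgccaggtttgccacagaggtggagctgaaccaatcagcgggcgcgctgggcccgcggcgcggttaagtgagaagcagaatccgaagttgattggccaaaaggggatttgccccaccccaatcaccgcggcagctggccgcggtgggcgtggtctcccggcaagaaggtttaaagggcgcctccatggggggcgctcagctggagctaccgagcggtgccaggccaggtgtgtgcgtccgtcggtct
TGATGNAA was in 10 of 33 ATF4 targets with a promoter sequence (30.3%) and in 2.88% of tested genes; it was in 2 of 7 of the targets that passed the interaction and in 8 of 26 of those that did not.

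Among the targets with a higher interaction, STC2, a secreted glycoprotein, was at 187, 216 and 195 CPM at day 6, against 97.6, 93.0 and 89.4 CPM with doxycycline. Parental cells held 184, 179 and 197 CPM without, against 131, 118 and 122 CPM with the drug. The 2 groups without the drug overlapped, and the difference lay in the groups with it (interaction 0.50 ± 0.09, adjusted p = 0.0018). TRIB3, a pseudokinase that feeds back on ATF4, had 0.71 ± 0.13 (adjusted p = 0.002). The amino acid transporters SLC1A5, for glutamine, and SLC7A5, for large neutral amino acids, rose at day 6 by 0.53 ± 0.06 and 0.44 ± 0.06 and gave 0.06 and 0.02 in the parental line; their interactions were 0.47 ± 0.09 (adjusted p = 0.0024) and 0.41 ± 0.09 (adjusted p = 0.0053). SLC7A5 nevertheless stood at 322 to 335 CPM at day 6, below the 406 to 434 CPM of parental cells without the drug.

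GDF15, a known circulating marker of mitochondrial disease, and INHBE, a secreted activin subunit, had the largest rises of the targets that passed at day 6. GDF15 was at 9.47 to 10.4 CPM at day 6, against 0.828, 0.676 and 0.503 CPM with doxycycline. In parental cells it was at 1.07, 1.01 and 0.755 CPM without, against 0.177, 0.214 and 0.283 CPM with the drug. Day 6 was thus above all other libraries, and the interaction was 1.80 ± 0.51 (adjusted p = 0.026); it missed the threshold without parental doxycycline replicate 2 (1.84) or 3 (1.62), deleted-line doxycycline replicate 2 (1.81) or 3 (1.65), or day 6 replicate 3 (1.78). INHBE was at 14.5, 12.1 and 14.9 CPM at day 6, against 1.80, 1.24 and 1.75 CPM with doxycycline, and at 6.98, 6.16 and 8.84 CPM in parental cells without, against 2.36, 1.98 and 2.50 CPM with it. Its interaction of 1.42 ± 0.39 (adjusted p = 0.022) missed the threshold without parental doxycycline replicate 3 (1.36), deleted-line doxycycline replicate 2 (1.28) or day 6 replicate 3 (1.38). The count of 9 targets became 5 without any 1 of the last 3 libraries. FGF21, a related hormone, was at or below 0.28 CPM in all 12 libraries.

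By the same rule the highest interaction was that of BEST1 (chromosome 11, 61949821 to 61965515, plus strand), a calcium-activated anion channel. BEST1 was at 36.2, 24.8 and 36.3 CPM at day 6, against 2.60, 2.26 and 3.49 CPM with doxycycline. In the parental line it was at 7, 6.28 and 6.44 CPM without, against 4.87, 4.45 and 3.87 CPM with the drug. It rose in both lines, 11.7-fold at day 6 and 1.49-fold in parental cells, for an interaction of 2.97 ± 0.28 (adjusted p = 5.7e-06). The gene FTH1 overlaps the end of BEST1 on the other strand, and whether counting used strand is not stated in the sources used here, so its counts are uncertain. NEB, the giant thin-filament protein of skeletal muscle, rose at day 6 (8.12 ± 1.62 against 2.35 ± 0.104 CPM; SD, n = 3 each) and not in parental cells (4.07 ± 0.579 against 5.65 ± 1.21 CPM), with an interaction of 2.26 ± 0.32 (adjusted p = 0.00038). DLK1, a non-canonical Notch ligand, rose at day 6 alone (interaction 1.58 ± 0.29, adjusted p = 0.0024). THSD7A, a membrane protein of podocytes and endothelium, was at 12.9, 9.00 and 13.4 CPM at day 6, against 6.39, 7.01 and 6.72 CPM with doxycycline, and at 2.92, 2.21 and 2.73 CPM in parental cells without, against 6.10, 6.29 and 6.56 CPM with it. The groups were apart in both lines and the changes were opposite (interaction 2.08 ± 0.31, adjusted p = 0.00056).

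Part of the higher interactions came from genes that fell in parental cells without doxycycline and were held or raised in the deleted line. LONP1 (chromosome 19, 5691834 to 5720452, minus strand), the main protease of the mitochondrial matrix, was at 398, 356 and 383 CPM at day 6, against 278, 267 and 289 CPM with doxycycline. Parental libraries held 297, 332 and 275 CPM without, against 399, 376 and 402 CPM with the drug. No group overlapped its partner, and the interaction was 0.83 ± 0.09 (adjusted p = 4.8e-05). Its partner chaperones DNAJA3 (0.59 ± 0.11, adjusted p = 0.0023) and HSPA9, the mitochondrial HSP70 (0.52 ± 0.14, adjusted p = 0.018), fell in the parental line and gave 0.17 and 0.10 in the deleted line, which did not pass. They are 3 of the 4 higher interactions among 20 mitochondrial chaperones and proteases, with 0 lower. In one of the LONP1 promoters that RefSeq lists (GRCh38.p14) 2 copies of CACGTG, the E-box bound by MYC and related factors, are in capitals.
LONP1 promoter, chr19:5720097-5720396, minus strand: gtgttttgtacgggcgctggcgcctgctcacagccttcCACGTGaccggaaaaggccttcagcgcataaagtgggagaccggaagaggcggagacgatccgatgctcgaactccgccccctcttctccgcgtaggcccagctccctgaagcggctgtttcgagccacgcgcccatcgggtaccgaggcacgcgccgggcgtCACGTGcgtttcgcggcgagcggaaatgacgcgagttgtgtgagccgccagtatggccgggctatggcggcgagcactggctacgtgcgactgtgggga

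Genes of ribosome biogenesis and other targets of MYC fell more widely in parental cells than at day 6. Of 35 tested members 11 had a higher interaction and 0 a lower (median 0.40). In the parental line 27 fell and 3 rose (median −0.53), while 13 fell and 4 rose at day 6 (median −0.19). All 13 that fell at day 6 also fell in the parental line. CAD, which starts pyrimidine synthesis, was at 267, 250 and 266 CPM at day 6, against 225, 226 and 236 CPM with doxycycline, and at 151, 173 and 184 CPM in parental cells without, against 242, 248 and 248 CPM with it. The parental libraries without the drug were the lowest of the 12, and the interaction was 0.73 ± 0.10 (adjusted p = 0.00029). RRP1B (0.53 ± 0.10, adjusted p = 0.0022), NOC4L (0.69 ± 0.13, adjusted p = 0.0024) and NOLC1 (0.40 ± 0.09, adjusted p = 0.0068), nucleolar factors, had the same sign. The count of 11 was 6 or 7 when replicate 2 or 3 of the parental doxycycline group, 1 or 2 of the deleted-line doxycycline group, or 1 or 3 of day 6 was left out, and it was 17 by DESeq2. MYC rose in both lines, by 0.61 and 0.54, with an interaction of 0.07.

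Smaller groups moved as follows, beside 5.49% higher and 7.14% lower of all genes tested. The count of lower interactions in DNA replication lies under that share. Cytosolic transfer RNA synthetases had 4 higher and 2 lower interactions among 20 (the 2 were 1 or 0 without any library other than day 6 replicate 2 and parental no-doxycycline replicate 2), led by WARS1 for tryptophan (0.67 ± 0.10, adjusted p = 0.00056), which rose at day 6, and VARS1 for valine (0.55 ± 0.09, adjusted p = 0.0014), which fell in parental cells. Of 16 genes of ERK feedback 3 were higher (6 without day 6 replicate 2, 5 without the low-count filter) and 0 lower, among them the phosphatase DUSP4 (1.07 ± 0.16, adjusted p = 0.00055), at 8.13, 7.87 and 8.06 CPM at day 6, against 7.03, 6.33 and 5.61 CPM with doxycycline, and at 3.98, 4.05 and 3.43 CPM in parental cells without, against 7.03, 6.36 and 5.57 CPM with it. DUSP4 was highest at day 6 and lowest in parental cells without the drug. DNA replication had 5 higher and 2 lower interactions among 34 (the 5 were 2 without parental no-doxycycline replicate 1 or deleted-line doxycycline replicate 2 and 3 without parental doxycycline replicate 3, and the 2 were 1 or 0 without any library other than day 6 replicate 2 and parental no-doxycycline replicate 2), with MCM2, of the replicative helicase, at 0.40 ± 0.09 (adjusted p = 0.0087). The metallothioneins MT2A (−0.68 ± 0.14, adjusted p = 0.0041) and MT1X (−0.81 ± 0.18, adjusted p = 0.0068), which bind zinc and whose family members resemble each other, fell at day 6 and did not pass in parental cells. Unfolded protein response genes, which serve the endoplasmic reticulum, had 0 interactions among 20 with all libraries and the low-count filter, with 5 higher and 1 lower at an unadjusted p under 0.05. The count became 4 higher without the filter, 2 higher by DESeq2, 1 higher without deleted-line doxycycline replicate 1 or day 6 replicate 1, 1 lower without day 6 replicate 2, and 1 of each without parental no-doxycycline replicate 2.

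Genes that moved together in both lines set the scale of the shared response. DEPP1, a FOXO target linked to autophagy, rose by 2.86 ± 0.30 at day 6 and 2.87 ± 0.29 in parental cells, and its 95% interval for the difference ran from −0.96 to 0.95. It was at 5.70, 6.95 and 5.79 CPM at day 6, against 0.985, 0.885 and 0.640 CPM with doxycycline, and at 7.78, 7.08 and 8.77 CPM in parental cells without, against 1.34, 1.14 and 0.747 CPM with it. LRRN3, a leucine-rich membrane protein of neurons, fell by 1.32 ± 0.15 at day 6 and by 1.55 ± 0.14 in parental cells (interaction 0.23 ± 0.20, adjusted p = 0.49). The nuclear RNA NEAT1 rose in both lines, by 1.25 ± 0.18 and 1.89 ± 0.19, with an interaction of −0.64 ± 0.26 that missed the threshold (adjusted p = 0.11). Changes were correlated with the genomic span of a gene within each line and hardly in the interaction: across 13344 genes with at least 2 CPM on average, Spearman's rho with span was 0.32 in the deleted line, 0.256 in the parental line and −0.01 in the interaction. The median 95% interval of an interaction reached 0.28 to either side for these genes and 0.44 for all genes tested. Smaller differences between the lines were mostly not detectable. The intervals are not adjusted for the number of genes tested, so larger differences could be missed too. In data simulated over 21004 genes, 14.4% of those changed by 0.5 (log2) and 56.1% of those changed by 1 were called. Only 200 genes of any level were changed there, in the day 6 group alone. In the real test 12.6% of genes were called, so these shares do not give its rate of detection.

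Lists with 0 calls in a direction were checked at an unadjusted p under 0.05. In the cholesterol, fatty acid, complex I, complexes II to V and tricarboxylic acid lists 0 members had a higher interaction there and 0 by DESeq2, and the ribosome biogenesis and ERK lists likewise had 0 lower. The ATF4 list had 4 lower members at an unadjusted p under 0.05 and 1 by DESeq2, and the mitochondrial chaperones and proteases had 2 and 1. Without any 1 library, the counts of 0 in these lists and in the quiescence list reached at most 1.

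The same interaction at day 9, which uses the same doxycycline and parental libraries, had 5272 higher (24.4%) and 5904 lower genes (27.3%), together 51.7% of those tested. The difference between the days is a test within the deleted line, day 6 against day 9, and it passed for 12709 genes (58.8%), 6526 higher at day 6 (30.2%) and 6183 lower (28.6%). TXNIP and ARRDC4 had a lower interaction at day 9 as well, with values of −3.02 ± 0.22 and −1.56 ± 0.15. For the cholesterol list the interaction medians were −0.76 at day 6 and −0.94 at day 9, with 17 and 14 lower and 0 and 3 higher members; between the days 8 members were higher and 11 lower at day 6 (median −0.07). ACAT2, in contrast, was at 75.0 ± 8.12 CPM on average at day 6 and at 146 CPM at day 9, a difference of −0.96 (adjusted p = 1.7e-09). The cytosolic ribosome had 47 lower members at day 6 and 17 at day 9, and 55 of its 78 members were lower at day 6 than at day 9. Complexes II to V had 24 lower and 0 higher interactions at day 6 and 6 lower and 11 higher at day 9, and 36 of 41 members were lower at day 6 than at day 9. Other lists had more interactions at day 9. Ribosome biogenesis and MYC had 29 higher and 4 lower of 35 there, against 11 and 0 at day 6. ERK feedback had 12 higher and 1 lower of 16, against 3 and 0. Mitochondrial chaperones and proteases had 12 and 1 of 20, against 4 and 0. Quiescence genes had 1 higher and 12 lower of 13, against 0 and 3. The mitochondrial ribosome had 56 higher and 1 lower of 81, against 3 and 9. BEST1, GDF15 and DLK1 were higher at day 6 than at day 9, by 1.84 (adjusted p = 1.1e-07), 1.55 (adjusted p = 0.00014) and 2.49 (adjusted p = 1.6e-08).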

How the data were processed

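RNA was measured by 151-bp paired-end sequencing, per the labels' protocols. The authors deposited raw counts per gene in 3 tables on GRCh38; HISAT2, featureCounts, Subread, SAMtools, DESeq2 and cutadapt 2.3 are listed in the submitters' processing notes, without roles. Neither the annotation release nor whether counting used strand is given in the sources used here. Lines of 16 broken genes were rejoined, and 6 libraries present in more than 1 table, with equal values, entered only once.

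Counts of all 18 libraries were fitted together with edgeR 4.0.16 in R 4.3.3 (TMM scaling, filterByExpr, 6 group means, quasi-likelihood test, Benjamini-Hochberg adjustment over 21615 genes, threshold 0.05), and the interaction was a contrast of 4 group means. Levels are TMM-scaled CPM, and intervals are 95% intervals of the fit. The labels do not state whether replicates were separate cultures; p-values then measure the spread between these libraries. Pairs of replicates differed by more than counting noise. Alternatives were the 12 libraries alone, other scalings, no filter, a replicate block, a trend over gene length and span (mgcv 1.9.3), DESeq2 1.42.0, and each library left out in turn. In data simulated for the day 6 interaction over 21004 genes, 200 genes were changed in the day 6 group alone. Of those changed by 1 on the log2 scale 56.1% were called, against 14.4% of those changed by 0.5.

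Genes were named by rule: a fixed set of 11 genes, the 12 highest and 12 lowest interactions that held without any 1 library with a mean of at least 2 CPM, the 6 largest in each direction that were opposite in the lines, 4 shared changes in each direction, and up to 4 members per list in the direction with more calls and up to 3 in the other. MLX, MLXIP, CHAC1 and MYC were added after their values were seen. The comparison and the 37 gene lists were chosen with earlier results of these data known.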

Additional observations from a re-analysis of the deposited data

Results flagged for a closer look

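The genes below were flagged because their changes went in opposite directions in the 2 lines, each passing in its own line. The interaction passed as well, which adds little, since opposite changes add up in it. Only named genes were screened. Fell in the deleted line and rose in the parental line: TXNIP (interaction −3.68, log2 here and below), MIR210HG (−2.18), ARRDC4 (−1.97), PLA2G3 (−1.97), OLMALINC (−1.78), ANKRD30A (−1.76), PFKFB4 (−1.62), ACSS2 (−1.37), FDPS (−1.09), COX6C (−0.82), ELOVL6 (−0.80), NPC2 (−0.74), BNIP3 (−0.73), RPL31 (−0.68), NDUFB4 (−0.65), PDHB (−0.58), MRPL48 (−0.55) and MRPS14 (−0.45).

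Rose in the deleted line and fell in the parental line: LRRC31 (2.10), THSD7A (2.08), BCYRN1 (1.56), CDHR3 (1.45), ZSWIM5 (1.31), ZNF416 (1.30), DUSP4 (1.07), LONP1 (0.83), CAD (0.73) and TFE3 (0.46). BCYRN1 has many near-identical copies in the genome, so its counts are uncertain. CAD lay close to the threshold in the deleted line, with an adjusted p of 0.05 after rounding. Groups of 3 libraries are too small for a test of outlying libraries.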

How the results depend on the processing

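No named gene that passed, of at least 147, changed sign in any alternative. Values near 0 did, such as DEPP1, from −0.19 to 0.2 with 1 library left out, RMRP, from −0.43 to 0.7, the median of the mitochondrial ribosome, from −0.04 to 0.03 (0.01 by DESeq2 and by library size alone), and that of protein import, from −0.01 to 0.11. Of the counts that answer a comparison, the higher interactions ran from 713 to 1589 and the lower ones from 889 to 1726 when 1 library was left out, and the genes called in the deleted line at day 6 ran from 3834, without deleted-line doxycycline replicate 3, to 5855. The main counts were 1186 higher and 1543 lower; DESeq2 gave 1735 and 1830, the 12 libraries alone 1515 and 1794, no low-count filter 1714 and 1665, and the removed length and span trend 1278 and 1592. Scaling by library size alone gave 1416 and 1386, so that 50.5% of its calls were higher, against 43.5% in the main result. DESeq2 shared 2722 and the 12 libraries alone 2555 of the 2729 calls. Of at least 147 named genes that passed, at least 43 lost the call without at least 1 library. Replicate numbers did not pair the libraries: correlations of deviations between same-numbered libraries ran from −0.077 to 0.037, and a replicate block gave 1131 higher and 1436 lower. With 3 libraries a group, the median 95% interval of an interaction reached 0.44 (log2) to either side.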

Other observations

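Further gene groups had interactions in both directions, beside 5.49% higher and 7.14% lower of all genes tested. Among 26 lysosome and autophagy genes 4 were higher and 4 lower (2 lower without any library other than day 6 replicate 2 and parental no-doxycycline replicate 2). NPC2, which carries cholesterol out of the lysosome, was at 34.8, 45.7 and 37.2 CPM at day 6, against 51.2, 47.4 and 45.0 CPM with doxycycline in the deleted line, and at 68.5, 67.3 and 75.8 CPM in parental cells without, against 52.5, 51.8 and 49.9 CPM with it. The deleted-line groups overlapped, since day 6 replicate 2 lay above doxycycline replicate 3, and the parental groups did not (interaction −0.74 ± 0.13, adjusted p = 0.002).

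Of 18 targets of p53, 3 had a higher and 2 a lower interaction (median 0.05), beside 5.49% and 7.14% of all genes tested. With 1 library left out the 3 were 2 to 4 and the 2 were 1 or 2. TP53I3, a quinone reductase, had the highest called interaction of them (1.22 ± 0.23, adjusted p = 0.0026), with −0.69 at day 6 and −1.91 in parental cells. Of 15 genes of fatty acid oxidation 2 had a lower interaction (1 to 3 with 1 library left out) and 0 a higher (1 by DESeq2), with a median of −0.11. ETFDH, which passes electrons from fatty acid oxidation to ubiquinone, gave −0.61 ± 0.11 (adjusted p = 0.0022). EGR1, an immediate early gene, was at 10.5, 6.01 and 10.5 CPM at day 6, against 4.41, 6.04 and 4.31 CPM with doxycycline, and at 0.912, 1.43 and 1.11 CPM in parental cells without, against 1.36, 1.69 and 1.52 CPM with it. Day 6 replicate 2 lay within the doxycycline range, and all 6 deleted-line libraries were above the 6 parental ones (interaction 1.27 ± 0.32, adjusted p = 0.015).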
